A study of Mus musculus with 104 samples.

Results

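The parent siRNA D4 and its derivative D6 were compared directly at 50 nM in cultured primary mouse hepatocytes (PMH), using the 4 libraries labelled with D4 at this dose and the 4 labelled with D6, beside the other 96 libraries of the series. Both siRNAs carry the same guide sequence against Ttr, and D6 differs from D4 by a single GNA-isoG nucleotide at guide position 6, within the seed. PMH were added to the mixture of siRNA and Lipofectamine RNAiMax in multiwell plates, and RNA was collected 24 h later. The 8 libraries labelled mock share these cells and this protocol and received none of the siRNAs, and 4 libraries of each siRNA at 10 nM served as a separate set. The strain, age and number of donor animals were not given, nor whether libraries of a group came from separate cultures, so p-values measure the spread between these libraries, which may be technical. Ttr was silenced in both groups.

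An siRNA guide strand is loaded into Argonaute and directs cleavage of transcripts to which it pairs along most of its length. Guide positions 2 to 8, the seed, can also pair with short matching sites in the 3′-UTR of other transcripts, which lowers their level in the manner of a microRNA. Glycol nucleic acid (GNA) has a shortened acyclic backbone and destabilizes the seed pairing when placed in it, and isoguanosine is an isomer of guanosine that changes how the GNA nucleotide pairs. The comparison asks which transcript levels differed when only this nucleotide was exchanged. In bulk RNA, fewer cells of a type and less RNA per cell cannot be told apart.

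The D4 libraries held 4956857 to 5338273 counts in genes and the D6 libraries 4907514 to 5347196, against 3409963 to 6160626 over all libraries of the series. The hepatocyte identity of the cells was checked with 13 markers, including albumin (Alb), which together took 29260 to 31780 CPM (counts scaled to a common library total) with D4, 25120 to 29960 with D6 and 25010 to 31010 in mock. This sum mostly reflects the abundant members. Alb had 331631 counts over the D4 and 316676 over the D6 libraries, and Trf 121499 and 117274. Other members were low, with 61 and 66 counts for Cps1, 107 and 123 for Tat, and 607 and 294 for Cyp2e1. Of 12 Kupffer cell and macrophage markers, 9 had no count in any of the 8 libraries, among them Adgre1, Clec4f and C1qa. The summed level of the macrophage list was 31.2 to 43.6 CPM with D4 and 21.5 to 28.3 CPM with D6, without overlap, and 16.2 to 23.3 CPM in mock. Nearly all of it was Cd68, with 721 counts over the D4 and 498 over the D6 libraries, while Csf1r had 17 and 23 and Lyz2 4 and 3. Markers of cholangiocytes, the bile duct cells, summed to 264 to 303 CPM with D4, 284 to 303 with D6 and 226 to 248 in mock. Summed levels of endothelial, stellate cell and lymphocyte markers overlapped between D4 and D6 and stayed below 24 CPM in each of these libraries.

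Ttr encodes transthyretin, which hepatocytes secrete as a carrier of thyroxine and of the retinol-binding protein. The D4 libraries held 11, 4, 7 and 3 counts of Ttr and the D6 libraries 9, 5, 4 and 7, while the 8 mock libraries held between 2421 and 3558. On the log2 CPM scale, Ttr stood at 0.60 ± 0.58 (SD, n = 4) after D4, 0.64 ± 0.37 (SD, n = 4) after D6 and 9.36 ± 0.13 (SD, n = 8) after mock transfection, and the D4 and D6 libraries overlapped. The difference of 0.04 had an exact permutation p of 0.914 (two-sided), where 0.0286 is the smallest that 4 against 4 libraries can give. An edgeR fit that kept genes with few counts gave a difference of −0.03 with a 95% interval from −1.05 to 0.99, so a difference of up to about that size was not detectable at these counts, which were too low for Ttr to enter the main test. Gapdh, a glycolytic enzyme used as a reference, had levels of 9.53, 9.50, 9.43 and 9.60 with D4 and 9.35, 9.47, 9.38 and 9.50 with D6. Its log2 fold change of −0.09 did not pass (edgeR adjusted p = 0.447). Its 3′-UTR holds a seed match, so it is not a reference free of such sites.

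Of 11159 genes tested, 467 (4.18%) differed between D6 and D4 with an adjusted p under 0.05 in edgeR's quasi-likelihood test, 247 (2.21%) higher and 220 (1.97%) lower with D6. At an unadjusted p under 0.05, 1747 genes (15.7%) passed. Most differences were small. The median size was 0.41 (log2) among the higher genes and 0.36 among the lower genes, only 11 and 9 genes reached a size of 1, and 161 and 159 stayed below 0.5. Libraries did not overlap for 424 of the 467 genes, against 9.97% of all genes tested, which largely follows from calling the genes on these same libraries. Of the 467, 459 were protein-coding. With scaling by library size in place of TMM, 303 genes were higher and 156 lower, and this scaling moved the median of all genes from −0.0013 to 0.026. The count fell to 270 without D6 replicate 1 and to 308 without D4 replicate 1, and was 287 with sequencing run 1 alone and 305 with run 2 alone. For comparison, 3921 genes (34.6%) differed from mock with D4 and 3572 (31.5%) with D6 in separate fits, which share libraries with the direct comparison and with each other.

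**Figure D1:**
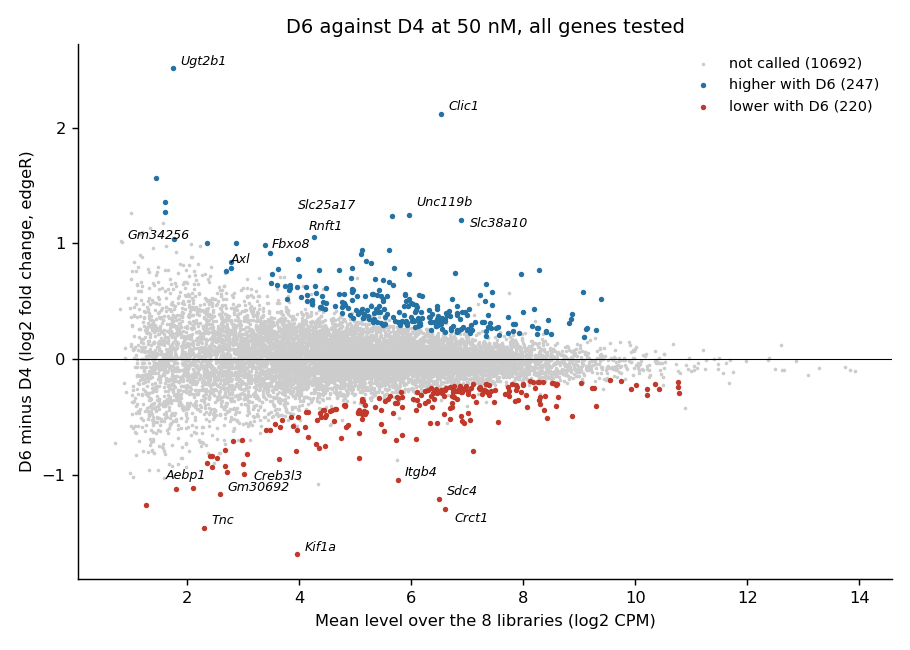
Log2 fold change of D6 against D4 at 50 nM (vertical axis) against the mean level over the 8 libraries (log2 CPM, horizontal axis) for the 11159 genes tested. Each point is a gene, coloured where the edgeR adjusted p was under 0.05, and most of the 247 higher and 220 lower genes lie within 1 log2 unit of 0.

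Several of the genes with the largest positive differences were lowered by D4 and stood near mock with D6. They were selected with the same D4 and D6 libraries, which favours this order. Clic1, which encodes a chloride intracellular channel protein, had levels of 5.39, 5.61, 5.39 and 5.53 (log2 CPM) with D4 and 7.54, 7.70, 7.55 and 7.58 with D6, against 7.57 to 7.80 in mock (median 7.69). The D6 libraries lay within or just below the mock range, and the log2 fold change of 2.12 (SE 0.07, edgeR adjusted p = 7.53e-19) is a 4.34-fold difference. Against mock, the fits gave −2.22 for D4 and −0.10 for D6.

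Unc119b, a lipid-binding chaperone of ciliary cargo, showed the same order of levels. It had 5.34, 5.36, 5.22 and 5.45 with D4, and 6.58, 6.58, 6.53 and 6.64 with D6, against a mock median of 6.48, which gave a log2 fold change of 1.24 (SE 0.08, edgeR adjusted p = 3.1e-12). Slc25a17, a peroxisomal carrier of coenzyme A and related cofactors, had 4.99, 5.08, 4.96 and 5.15 with D4 and 6.16, 6.42, 6.29 and 6.22 with D6, a log2 fold change of 1.23 (SE 0.09). Slc38a10, an amino acid transporter, had 6.32, 6.34, 6.32 and 6.19 with D4 and 7.43, 7.66, 7.52 and 7.34 with D6, a log2 fold change of 1.20 (SE 0.07). Lack of overlap between the groups was a condition for naming these 3 genes and Clic1. Their log2 fold changes against mock lay between −2.22 and −1.12 for D4 and between −0.22 and 0.10 for D6. Slc25a17 was still lower than mock with D6 (−0.22, edgeR adjusted p = 0.0172).

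Other genes of this group stayed below mock with D6. Rnft1, a ubiquitin ligase of the endoplasmic reticulum, had 3.70, 3.44, 3.96 and 3.85 with D4 and 4.52, 4.70, 4.96 and 4.92 with D6, against 5.57 to 6.03 in mock (log2 fold change D6 against D4 of 1.05, SE 0.14, edgeR adjusted p = 1.11e-05). Fbxo8, an F-box protein, had 2.92, 2.79, 2.94 and 2.999 with D4 and 4.10, 3.48, 3.88 and 3.96 with D6, against a mock median of 4.65 (0.99, SE 0.18). Against mock, Rnft1 stood at −2.14 with D4 and −1.08 with D6, and Fbxo8 at −1.78 and −0.79.

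Axl, a receptor tyrosine kinase, had 2.92, 1.57, 2.83 and 2.14 with D4 and 3.15, 3.03, 3.62 and 3.76 with D6 (log2 fold change 0.999, edgeR adjusted p = 0.0229). The unnamed gene Gm34256 had 1.85, 2.06, 1.66 and 2.14 with D4 and 2.22, 3.43, 2.44 and 3.05 with D6 (1.004, edgeR adjusted p = 0.0341). Both are low and variable, and their calls depended on single libraries. Axl was not called without D4 replicate 2 or 4 or D6 replicate 3 or 4, with an adjusted p of up to 0.0765 and values from 0.78 to 1.21. Gm34256 was not called without D4 replicate 1, 2 or 3 or D6 replicate 2 or 4, with an adjusted p of up to 0.198 and values from 0.74 to 1.18.

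**Figure D2:**
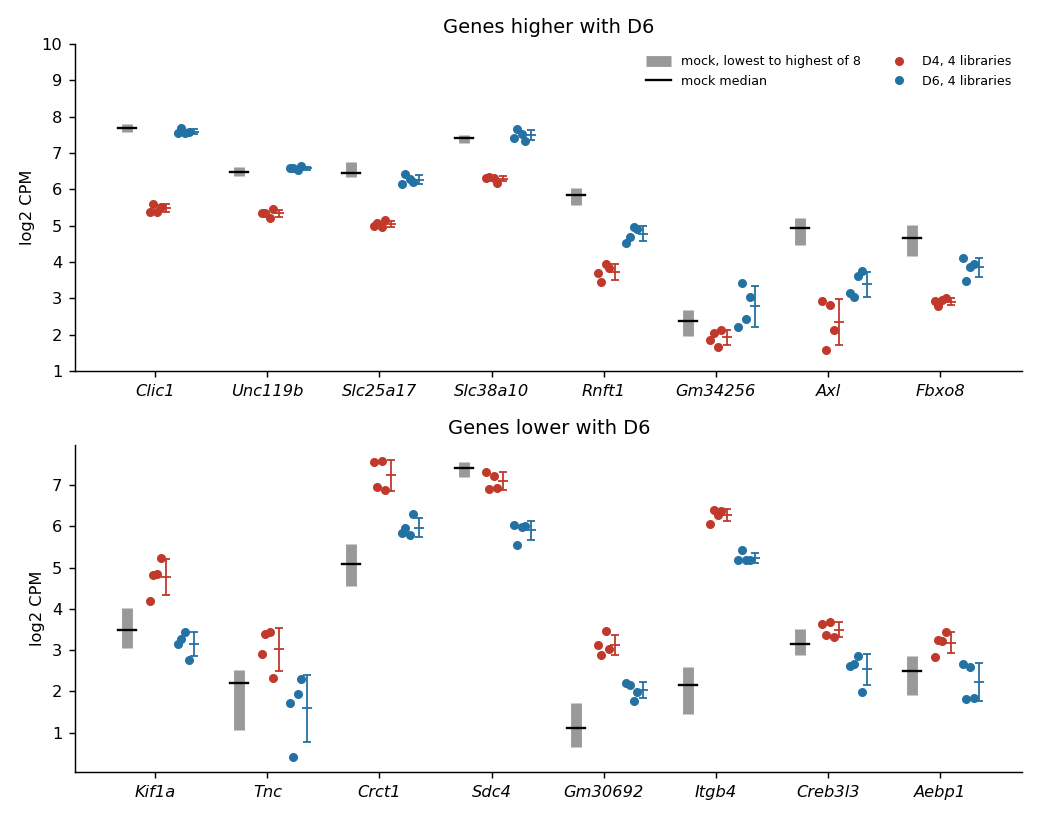
Level (log2 CPM) of the 8 genes with the largest positive and the 8 with the largest negative difference among called genes with a mean log2 CPM of at least 2 and no overlap of libraries, in each D4 (red) and D6 (blue) library at 50 nM, with the mean and SD as bars and the lowest to highest of 8 mock libraries in grey with the median as a line. For Clic1, Unc119b and Slc38a10 the D6 points lie near the mock range and the D4 points below it, while for Itgb4 and Crct1 both siRNAs lie above the mock median and D4 above D6.

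Of the 8 named genes with the largest positive differences, Clic1 and Unc119b hold a transcript match to at least 11 consecutive guide positions through position 6, and Slc25a17 and Slc38a10 hold neither such a match nor a seed match in the 3′-UTR. The letters below are transcript strand from GRCm39, 5′ to 3′, with capitals for the bases complementary to consecutive guide positions, for these 2 genes and for Cct2 and Rnf11, which have smaller differences. They are shown because these matches run through guide position 6, where the siRNAs differ.
Clic1: cagctgccGTTCTTGCTCTATggcaccga
Unc119b: gcatcttcTGTTCTTGCTCTAgaagccat
Cct2: atgctctttGTGTTCTTGCTCagactgtaa
Rnf11: attagacctTGTTCTTGCTCcagtacata
The capitals of Clic1 lie at chr17:35271802-35271814 on the plus strand, in coding sequence of exon 3, and match guide positions 3 to 15. Those of Unc119b lie at chr5:115262797-115262809 on the minus strand, in the 3′-UTR in exon 5, and match positions 4 to 16. Those of Cct2, a subunit of the chaperonin that folds actin and tubulin, lie at chr10:116891048-116891059 on the minus strand in coding sequence of exon 12 (positions 6 to 17). Those of Rnf11, a ubiquitin ligase adaptor, lie at chr4:109311190-109311200 on the minus strand in the 3′-UTR in exon 3 (positions 6 to 16).

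Cct2 had 7.69, 7.48, 7.59 and 7.59 with D4 and 8.31, 8.31, 8.29 and 8.40 with D6 (log2 fold change 0.73, SE 0.06, edgeR adjusted p = 7.77e-10), and neither Cct2 nor Rnf11 (0.58) holds a seed match in the 3′-UTR that was searched. Against mock, Cct2 stood at −1.61 with D4 and −0.87 with D6, and Rnf11 at −1.07 and −0.49. Among canonical transcripts of the genes tested, 77 (0.691%) held a match of at least 11 consecutive guide positions through position 6, and 13 of these (16.9%) were higher and 3 (3.90%) lower with D6, against 207 of 10322 (2.01%) higher and 200 (1.94%) lower where the longest such match was at most 8. Of 750 genes with a longest match of 9 or 10, 27 (3.60%) were higher and 17 (2.27%) lower. The medians of the log2 fold change were 0.06 for matches of at least 11 and −0.0021 for those of at most 8, and against mock the median for matches of at least 11 was −0.10 with D4 and −0.11 with D6. The 13 higher genes were Clic1, Unc119b, Man1a2, Cct2, Rnf11, Trim12c, Tdp1, Ccni, Slc19a2, Arpc5, Gna12, Dusp8 and Pdcd6ip. Of these, Man1a2, Trim12c, Tdp1, Slc19a2, Arpc5 and Pdcd6ip also hold a seed match in the 3′-UTR, as do the 3 lower genes. Such genes are counted again in the seed classes below, so the shares are not independent. All 13 had a positive difference in the 10 nM libraries, as did 197 of the 207 higher genes with a longest match of at most 8 and all 27 with 9 or 10. The 3 lower genes were Desi2 (−0.25, edgeR adjusted p = 0.0461), Zbtb20 (−0.42) and Rnmt (−0.44), and the match of Desi2 covers 13 positions (4 to 16), as in Unc119b. Upf3a, Pdpk1 and Gorasp1, with 13 matched positions (6 to 18), did not pass (0.12, 0.03 and −0.15). Without D6 replicate 1 or without D6 replicate 3, 8 of the 77 were higher. The search for longer matches was chosen after the values of Clic1 and Unc119b had been seen, and both are among the 13. The longest match among these genes, 14 positions (5 to 18), was in Kpna6, an importin, which stood at −2.53 with D4 and −2.20 with D6 against mock. Its difference of 0.33 (SE 0.11) at 50 nM did not pass (edgeR adjusted p = 0.102), and at 10 nM the difference was 0.76.

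The seed of both guides matches the letters CTCTATA in a transcript (positions 2 to 8, mer7m8), and the strongest class, mer8, adds an A opposite position 1 (CTCTATAA). A mer7A1 site has positions 2 to 7 and the A (TCTATAA). Each gene was counted once under its strongest match in the transcript strand of its 3′-UTR. The mer8 genes with the largest positive differences held the following matches, with the 8 matched bases in capitals.
Rnft1: actgtattatgCTCTATAAtatgactagta
Fbxo8: actgacatatgCTCTATAAatggagtgttt
Man1a2: tattctgtttgCTCTATAAatagccagcaa
Impa1: ctagatgctctCTCTATAAggtcttgggcc
Cpne3: aagcaatgcacCTCTATAAggcagggtttc
Parp12: gggttaaaagcCTCTATAAccaggcccgac
In GRCm39 the capitals lie at chr11:86387324-86387331 (plus strand, exon 9) for Rnft1, chr8:57044935-57044942 (plus, exon 4) for Fbxo8, chr3:100471100-100471107 (minus, exon 12) for Man1a2, chr3:10379351-10379358 (minus, exon 9) for Impa1, chr4:19521498-19521505 (minus, exon 16) for Cpne3 and chr6:39063934-39063941 (minus, exon 12) for Parp12, each in the 3′-UTR.

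Man1a2, a mannosidase that trims N-glycans in the Golgi, had 4.59, 4.63, 4.96 and 4.43 with D4 and 5.61, 5.66, 5.59 and 5.54 with D6, against a mock median of 6.47 (log2 fold change 0.94, SE 0.11, edgeR adjusted p = 5.81e-07). Its match extends to 11 guide positions (1 to 11). Impa1, which releases free inositol from its phosphate, had 5.30, 5.33, 5.34 and 5.25 with D4 and 5.96, 6.02, 6.05 and 6.31 with D6 (0.79, SE 0.09). Cpne3, a calcium-dependent phospholipid-binding protein, had 6.43, 6.26, 6.56 and 6.37 with D4 and 7.21, 7.04, 7.24 and 7.12 with D6 (0.75, SE 0.07). Parp12, an ADP-ribosyltransferase induced by interferon, had 5.40, 5.46, 5.00 and 5.21 with D4 and 6.05, 5.77, 6.23 and 5.67 with D6 (0.67, SE 0.12). Lack of overlap between the groups was a condition for naming these 4 genes. All 4 remained below mock with D6, by 0.39 to 0.98 on the log2 scale, against 1.13 to 1.83 with D4.

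Of the 10600 genes tested that have an annotated 3′-UTR, 327 (3.08%) held a mer8 match, and 26 of these (7.95%) were higher and 7 (2.14%) lower with D6. Of 712 mer7m8 genes, 30 (4.21%) were higher and 15 lower, and of 1104 mer7A1 genes, 26 (2.36%) were higher and 34 (3.08%) lower. Among 8457 genes with none of these matches, 161 (1.90%) were higher and 160 (1.89%) lower. The median log2 fold change was 0.05 for mer8, 0.03 for mer7m8, −0.0066 for mer7A1 and −0.0039 for genes with no match. All 26 mer8 genes and all 30 mer7m8 genes called higher had a positive difference at 10 nM as well. The same held for 154 of the 161 higher genes with no match, so it was not particular to seed-matched genes. Without D6 replicate 3, 17 mer8 genes were higher, and without D6 replicate 1, 19 mer7m8 genes were. The 7 mer8 genes lower with D6 included Cltc, the clathrin heavy chain, Gusb, a lysosomal glucuronidase, and Id3, an inhibitor of bHLH transcription factors.

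Read from the genes, 82 of the 243 genes with a 3′-UTR that were higher with D6 (33.7%) held a seed match of any class, as did 56 of the 216 lower genes (25.9%) and 20.2% of all tested. Most of the differing genes in both directions thus held none of the 3 matches. Where the base opposite guide position 6 was A, G or T in place of C, between 1.53% and 2.90% of the genes in each class were higher and between 1.05% and 2.72% lower with D6, close to the 2.21% and 1.97% of all genes.

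The same groups of genes were summarized as a seed score, the mean level (log2 CPM) of a class minus that of genes with no match, in each library. The mer8 score of the D4 libraries was −0.14, −0.15, −0.14 and −0.17, that of the D6 libraries −0.05, −0.12, −0.07 and −0.10, and it lay between 0.08 and 0.13 in mock. The D4 and D6 libraries did not overlap, and their means differed by 0.07, the D6 score remaining 0.19 below mock and the D4 score 0.26 below it. The mer7m8 score of the D4 libraries was 0.11, 0.12, 0.13 and 0.11, and that of the D6 libraries 0.17, 0.13, 0.18 and 0.16, again without overlap (difference 0.05). For mer7A1 the libraries overlapped and the means differed by −0.0029, and both siRNAs stood 0.11 below mock. With A, G or T opposite position 6, the scores of D4 and D6 overlapped in every class. Most of these scores also lay below mock. The distances from mock ran from −0.11 (A, mer8) to 0.0009 (G, mer8) with D4 and from −0.09 to 0.0079 with D6, so a distance of that size was not particular to matched genes. With a minimum mean of 0.1 in place of 1 CPM, the mer8 difference fell to 0.034 and the mer7m8 difference to 0.026. The score differences are descriptions over sets of 357, 760 and 1189 genes and were given no test.

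**Figure D3:**
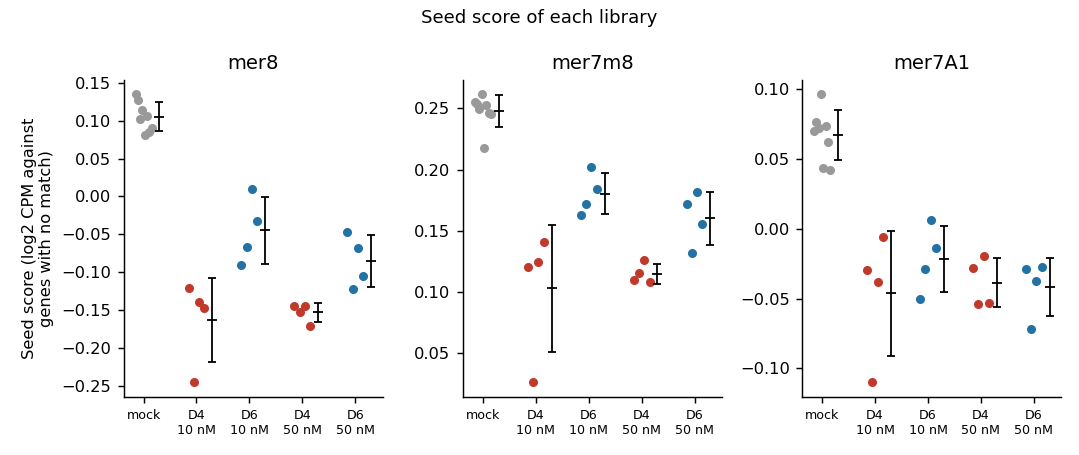
Seed score of each library (vertical axis, mean log2 CPM of genes with the match minus that of genes with none) for mer8, mer7m8 and mer7A1, by siRNA and dose, with mean and SD as bars. D6 points (blue) lie above D4 points (red) of the same dose for mer8 and mer7m8 and overlap them for mer7A1, and the mock points (grey) lie above both.

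Of the 8 named genes with the largest negative differences, 7 had a positive log2 fold change against mock with D4. They were selected with the same D4 libraries, which favours this sign, and 1 of them, Creb3l3, did not pass against mock (0.29, edgeR adjusted p = 0.155). Kif1a, a kinesin motor of vesicle transport, had 4.19, 4.82, 4.86 and 5.23 (log2 CPM) with D4 and 3.15, 3.27, 3.44 and 2.76 with D6, against 3.06 to 4.03 in mock (log2 fold change −1.69, SE 0.20, edgeR adjusted p = 2.55e-05). Itgb4, the β4 integrin of hemidesmosomes, had 6.06, 6.40, 6.27 and 6.37 with D4 and 5.18, 5.42, 5.18 and 5.18 with D6, against a mock median of 2.15 (−1.05, SE 0.09, edgeR adjusted p = 4.53e-09). Both groups were thus far above mock for Itgb4 (4.34 and 3.29 on the log2 scale), while for Kif1a the fit gave 1.31 for D4 and −0.37 for D6.

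Sdc4, the cell-surface proteoglycan syndecan-4, was the exception. It had 7.33, 6.91, 7.23 and 6.94 with D4, 6.03, 5.56, 5.99 and 6.01 with D6 and 7.20 to 7.56 in mock (log2 fold change −1.21, SE 0.12, edgeR adjusted p = 2.09e-05). The D6 libraries lay below all mock libraries, with −1.48 against mock for D6 and −0.27 for D4.

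Crct1, a gene of the epidermal differentiation complex, had 7.56, 6.94, 7.58 and 6.88 with D4 and 5.83, 5.95, 5.80 and 6.31 with D6 (−1.30, edgeR adjusted p = 0.0297), against a mock median of 5.09. Its call was lost without D4 replicate 1 or 3 or D6 replicate 1, 2 or 3, with an adjusted p of up to 0.1001 and values from −1.42 to −1.18. Tnc, the matrix protein tenascin-C, had 2.92, 3.39, 3.44 and 2.32 with D4 and 1.72, 0.41, 1.94 and 2.29 with D6 (−1.46, edgeR adjusted p = 0.0117), and its call was lost without D6 replicate 1 (−1.16, adjusted p = 0.0574). Aebp1, a secreted collagen-binding protein, differed by −0.97 (edgeR adjusted p = 0.0127), was not called without D6 replicate 2 (adjusted p = 0.0633) and stood at −0.0063 in the 10 nM libraries. Creb3l3, a hepatic transcription factor of lipid metabolism that is processed from the endoplasmic reticulum, differed by −0.997 (SE 0.20, edgeR adjusted p = 0.00256), and the unnamed gene Gm30692 by −1.17 (SE 0.23, edgeR adjusted p = 0.00146).

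Hepatocyte pathways were described through 34 gene lists. Over all lists, 54 of 862 distinct genes tested (6.26%) differed, beside 4.18% of all genes, and most calls were of 1 to 4 genes in a list. Members of the list of fatty acid and triglyceride synthesis were lower with D6 in 7 of 27 cases and higher in none, beside 1.97% lower over all genes. The median of the list was −0.14 against −0.0013 over all genes, and 14.8% of its members had a positive value. Scd2, a stearoyl-CoA desaturase that introduces a double bond into saturated fatty acids, had 7.62, 7.79, 7.92 and 7.96 with D4 and 7.26, 7.50, 7.24 and 7.11 with D6, without overlap (log2 fold change −0.55, SE 0.08, edgeR adjusted p = 0.000195). Fasn, the fatty acid synthase, had 9.63, 9.38, 9.71 and 9.28 with D4 and 9.11, 9.13, 9.08 and 9.11 with D6 (−0.40, edgeR adjusted p = 0.0019). The other 5 were the lipid droplet coat Plin2 (−0.26), acetyl-CoA carboxylase Acaca (−0.29), the elongase Elovl5 (−0.28), the desaturase Fads1 (−0.21) and the lipid droplet protein Cidea (−0.71).

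Several of these calls were lost when single libraries were left out, though Scd2 and Plin2 kept theirs in all 8 omissions. Without D4 replicate 1, 4 members of the synthesis list were called, and without D4 replicate 3, 3 were. Fasn was not called without D6 replicate 4 (adjusted p = 0.0644), and Acaca was not called without D4 replicate 1 or 3 (adjusted p of up to 0.0739). In the 10 nM libraries the median of the list was 0.0014, Scd2 stood at −0.12 and Fasn at 0.091, and Plin2 (−0.29, edgeR adjusted p = 0.0345) was called there.

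In the list of cholesterol synthesis and SREBP2 targets, 4 of 27 members were lower with D6 and none higher, beside 1.97% lower over all genes. The median of the list was −0.098, and 0.053 at 10 nM. Cyp51, the sterol demethylase of the pathway, had 8.71, 8.41, 8.75 and 8.47 with D4 and 8.16, 8.13, 8.21 and 8.14 with D6 (log2 fold change −0.44, SE 0.07, edgeR adjusted p = 9.91e-05). The squalene synthase Fdft1 differed by −0.28 and the sterol desaturase Sc5d by −0.28. The D4 and D6 libraries did not overlap for any of these 3 genes, and 4 or 5 members were called when single libraries were left out, but 2 with sequencing run 2 alone. Of 22 apolipoproteins and genes of lipoprotein handling, the cholesterol exporter Abca1 (−0.32), the acyltransferase Lcat (−0.45) and Apoa5 (−0.59), a stimulator of triglyceride hydrolysis, were lower with D6. Each of these 3 lost its call in 4 to 7 of the 8 omissions of a single library, with an adjusted p of up to 0.163, and 0 or 1 members of the list were called without D4 replicate 1, 2 or 3 or D6 replicate 2 or 4.

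Of 40 genes of the unfolded protein and integrated stress response, 4 were lower with D6 and none higher, beside 1.97% lower over all genes. The median was −0.12 and 7.5% of members had a positive value, against 49.6% of all genes, and the share was also low in the lists of ribosomal proteins (6.25%), coagulation (8.70%), hepatocyte markers (15.4%) and acute-phase proteins (16%). Atf3, a stress-induced transcription factor, had 6.02, 6.13, 5.93 and 6.07 with D4 and 5.51, 5.55, 5.71 and 5.73 with D6, without overlap (log2 fold change −0.42, SE 0.08, edgeR adjusted p = 0.00217). The lectin chaperones of the endoplasmic reticulum Calr (−0.26) and Canx (−0.25) and the mTORC1 inhibitor Ddit4 (−0.46) were the others. Without D4 replicate 1 or D4 replicate 3, 1 member of the list was called, and without D6 replicate 1, 2 were. Calr was lost without D4 replicate 1 or 3 (adjusted p of up to 0.0929), Canx also without D6 replicate 1 (up to 0.0989) and Ddit4 in 7 of 8 omissions (up to 0.118). Of 18 heat shock and chaperone genes, the HSP90 co-chaperone Chordc1 was lower (−0.69, edgeR adjusted p = 1.26e-05), with 6.47, 6.36, 6.61 and 6.23 in D4 libraries and 5.68, 5.51, 5.79 and 5.94 in D6 libraries, while Hspa8 (−0.19) and Hspb1 (0.28) lost their calls in 6 and 5 omissions.

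Genes of the NRF2 and oxidative stress response were higher with D6 in 5 of 31 cases and lower in none (median 0.087), beside 2.21% higher over all genes. Hmox1, which degrades haem, had 7.96, 7.76, 8.02 and 7.85 with D4 and 8.71, 8.79, 8.63 and 8.57 with D6, against 6.99 to 7.86 in mock. Its D6 libraries lay above all others (log2 fold change 0.77, SE 0.06, edgeR adjusted p = 1.11e-09), and against mock it stood at 0.29 with D4 and 1.06 with D6. Nfe2l2, which encodes the NRF2 transcription factor, was higher by 0.38, the peroxiredoxin Prdx6 by 0.34, the sulfiredoxin Srxn1 by 0.28 and the thioredoxin Txn1 by 0.22. Unlike Hmox1, these 4 genes had negative log2 fold changes against mock, from −0.84 to −0.43 with D4 and from −0.62 to −0.05 with D6. Between 4 and 6 members were called when single libraries were left out, and the median at 10 nM was −0.0078.

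Among 26 genes of phase II conjugation, which attach polar groups to drugs and hormones, 4 were higher and none lower with D6, beside 2.21% higher over all genes (median 0.14, 10 nM median −0.0080). Ugt2b1, a glucuronosyltransferase, had 7, 4, 6 and 7 counts with D4 and 39, 36, 27 and 41 with D6, the largest log2 fold change of all genes called (2.51, SE 0.30, edgeR adjusted p = 2.08e-06), and its level was −3.42 against mock with D4 and −0.91 with D6. The glutathione transferase Gsta1 was higher by 0.55 (edgeR adjusted p = 0.000653), with no overlap. Ugt2b36 (0.42) and the epoxide hydrolase Ephx2 (0.24) lost their calls in 6 and 5 of the 8 omissions, and without D4 replicate 2, D6 replicate 1 or D6 replicate 2 the list held 2 called members. Ugt2b, Gsta and Cyp2a genes have near-identical relatives with which reads can be shared, so their values are uncertain. Of 30 cytochrome P450 genes, Cyp2a5 (0.44, edgeR adjusted p = 0.0492) was the only one higher, and it lost its call in 7 of 8 omissions. Cyp2e1 had the lowest value of that list (−1.08, SE 0.28), and it did not pass (edgeR adjusted p = 0.0866).

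Among genes of endocytosis and the lysosome, 3 of 32 were lower with D6 and none higher, beside 1.97% lower over all genes. These were Atp6v1a, a subunit of the proton pump of lysosomes (−0.36), Cltc (−0.31) and the autophagy receptor Sqstm1 (−0.30). None of these 3 overlapped between the groups, and all kept their calls in every omission of a single library. In the small RNA machinery, the decapping enzyme Dcp2 had 5.42, 5.22, 5.41 and 5.12 with D4 and 5.92, 5.97, 5.77 and 5.69 with D6 (log2 fold change 0.55, SE 0.09, edgeR adjusted p = 0.000381). Ago2, the slicing Argonaute, was higher by 0.23 (edgeR adjusted p = 0.0257) and the poly(A)-binding protein Pabpc1 lower by 0.20 on the log2 scale, and these calls were lost in 4 and 6 of 8 omissions.

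Single members were called in other lists. Ccnd3, a D-type cyclin, had 5.13, 4.85, 4.63 and 4.86 with D4 and 5.72, 5.69, 5.62 and 5.78 with D6 (log2 fold change 0.83, SE 0.10, edgeR adjusted p = 2.6e-06), the only one of 35 cell cycle genes called. Ppara, the nuclear receptor that drives fatty acid oxidation, was higher by 0.58, the coagulation initiator F3 by 0.64, the cytokine Csf1 by 0.48 and the proteasome subunit Psmb10 by 0.62. Bckdhb, of branched-chain amino acid breakdown, was lower (−0.67), as were the plasma proteins Plg (−0.29) and Serpina3n (−0.32) and the aryl hydrocarbon receptor Ahr (−0.38), the last not called without D6 replicate 2 (adjusted p = 0.0752). Calls of Btg2 (0.30), Ugp2 (0.26), Hk1 (−0.79), Flna (−0.25), Actg1 (−0.22) and Tgfbr2 (0.25) were lost in 3 to 7 omissions of a library. Of the marker lists, the lysosomal membrane protein Cd68 was lower (−0.57, edgeR adjusted p = 0.00264) as the only macrophage marker with enough counts to be tested, and of 6 cholangiocyte markers tested (median 0.027) the keratin Krt7 was higher (0.92, edgeR adjusted p = 0.000964). The other 5 did not pass, with Epcam at −0.53, Sox9 at −0.08, Spp1 at −0.01, Krt19 at 0.06 and Tspan8 at 0.23, and Cftr, not tested, had 54 counts with D4 and 21 with D6. Their part in the differences of other genes was not tested.

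No member was called among 80 ribosomal protein genes (median −0.10, 6.25% of members positive), 78 nuclear-encoded respiratory chain genes (median 0.011), 31 interferon response genes (0.11), 18 complement genes (−0.12), 14 genes of bile acid synthesis and transport (−0.046), 13 hepatocyte markers (−0.10) and 6 carriers of retinol and thyroid hormone (−0.26, all with negative values).

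**Figure D4:**
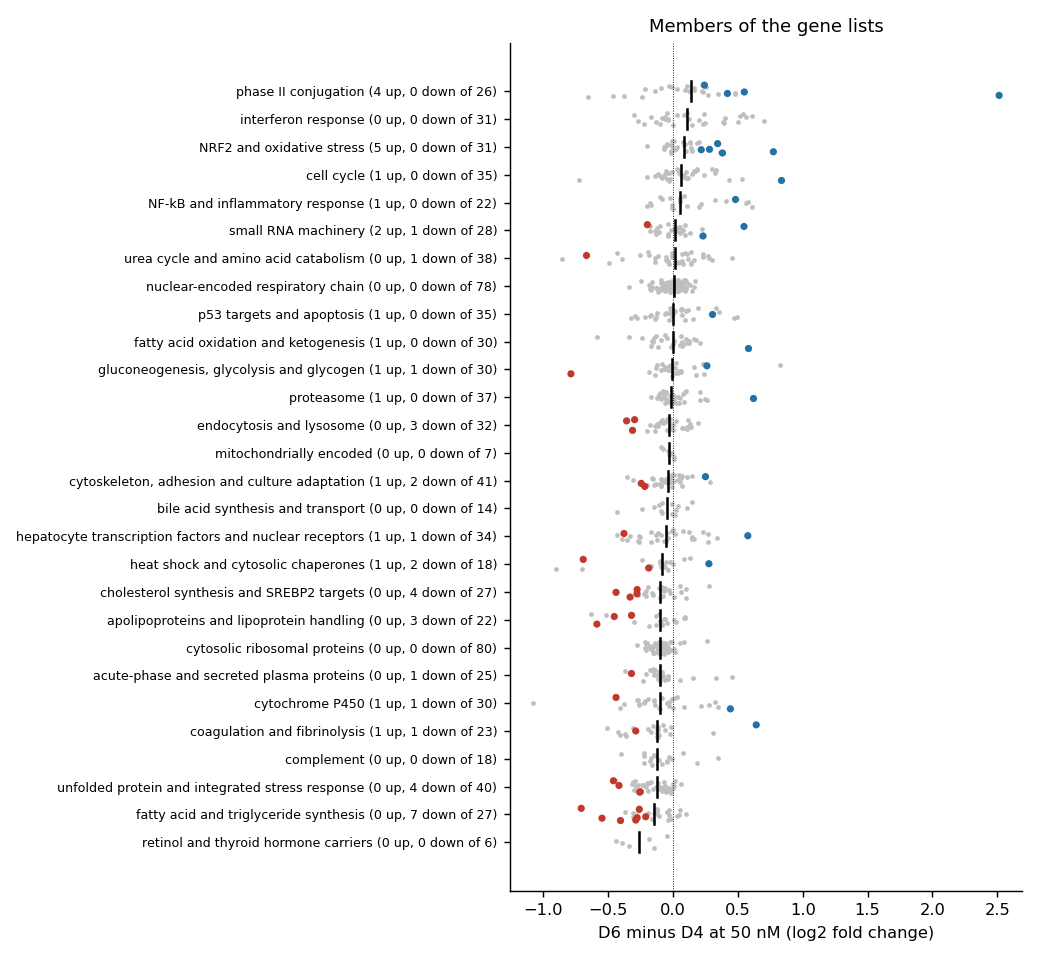
Log2 fold change of D6 against D4 at 50 nM for the tested members of each gene list, with the median as a bar and members with an adjusted p under 0.05 in blue (higher) or red (lower). Red points gather in the lists of fatty acid, cholesterol and stress response genes and blue points in the lists of NRF2 and phase II genes, while most members of every list lie near 0.

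At 10 nM, in libraries that the 50 nM comparison did not use, 214 of 11168 genes (1.92%) differed between D6 and D4, 136 (1.22%) higher and 78 (0.698%) lower. Of the 247 genes higher with D6 at 50 nM, 237 were higher in value at 10 nM and 76 were called in that direction, and of the 220 lower genes, 196 were lower in value and 32 were called. The shared direction held for 92.7% of the 467 genes, against 61.3% of the 11031 genes tested at both doses, and none was called in the opposite direction. The 108 shared calls were 23.1% of the calls at 50 nM and 50.9% of those at 10 nM. The median difference at 10 nM was 0.34 among the genes higher at 50 nM and −0.19 among the lower genes, whose median sizes at 50 nM were 0.41 and 0.36. The 10 nM count fell to 90, 60 and 92 without D6 replicate 2, 3 and 4 of that dose and to 48.6% of its value without D6 replicate 1, and it rose to 798 when all libraries of the series shared an estimate of the spread.

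Clic1 (1.87), Unc119b (1.19), Slc25a17 (1.04), Slc38a10 (1.04), Rnft1 (0.90), Man1a2 (0.87), Sdc4 (−1.03), Kif1a (−0.88) and Itgb4 (−0.77) kept their direction and passed at 10 nM in edgeR's test. Fbxo8 (0.52), Axl (0.42), Parp12 (0.48), Crct1 (−0.77) and Hmox1 (0.67, edgeR adjusted p = 0.0734) kept their direction without passing. The mer8 and mer7m8 scores differed by 0.12 and 0.077 between D6 and D4 at 10 nM, again without overlap of the libraries. With A, G or T opposite position 6, the scores at 10 nM were also higher with D6, by 0.033 to 0.057, and the libraries overlapped. In every class, matched or not, D4 replicate 2 at 10 nM had the lowest score of its group (mer8 −0.25 against −0.15 to −0.12). When the difference between D6 and D4 was itself compared between the doses, 0 of 11489 genes had an adjusted p under 0.05 in edgeR and 786 an unadjusted p under 0.05. This comparison was added after the values had been seen. Ttr counts at 10 nM were 8, 9, 12 and 3 with D4 and 7, 5, 7 and 6 with D6.

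**Figure D5:**
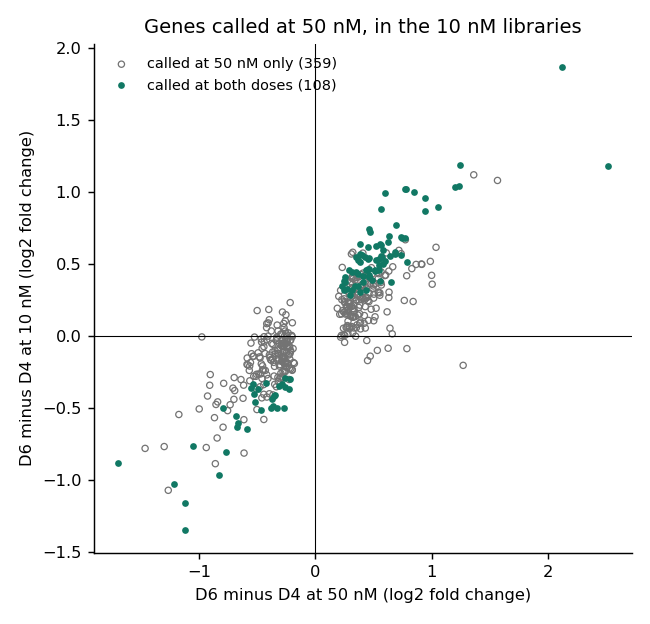
Log2 fold change of D6 against D4 at 10 nM (vertical axis) against that at 50 nM (horizontal axis) for the 467 genes called at 50 nM, with the 108 called at both doses filled. The doses come from separate libraries, and 433 of the 467 points lie in the quadrants of equal sign.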

How the data were processed

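RNA from PMH was isolated on DYNABEADs and sequenced on a NextSeq500 after a stranded total RNA library preparation, in 2 sequencing runs per library. The authors trimmed and filtered the reads with fastq-mcf, aligned them with STAR to GRCm39 and deposited raw, unnormalized counts of uniquely aligned reads, summarized by gene with featureCounts (version 2.0.2 per the submitters' processing notes, which also name DESeq2 1.32.0 and mm39), and the strand setting and annotation release are not given in the sources used here. The deposited DESeq2 tables of each siRNA against mock hold log2 fold changes and p-values and were not used.

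The runs of a library differed little beyond counting error (a chi-square over its degrees of freedom of 1.01 to 1.06, against 1.84 to 5.35 between replicates) and their counts were summed. The 92 ERCC spike-ins (0.547% to 1.43% of counts with D4, 0.582% to 0.755% with D6) were dropped, leaving 55416 genes. D6 was tested against D4 with edgeR 4.0.16 in R 4.3.3 (filterByExpr, TMM, glmQLFit with robust set to TRUE, glmQLFTest) on the 4 and 4 libraries alone, with Benjamini-Hochberg adjustment over all genes tested. Levels are log2 CPM after TMM with a prior count of 2. A called gene has an adjusted p under 0.05. In simulated counts of this comparison with 200 of 11159 genes changed, 52.6% of genes lowered by 0.5 (log2) and 97.4% of those lowered by 1 were called. So were 40% and 97.5% of those raised by 0.5 and 1. The calls of changed genes numbered 39, 38, 20, 16 and 39 for changes of −2, −1, −0.5, 0.5 and 1. Beside them, 18 of 10849 unchanged genes were called. False calls thus made up a larger share of the calls in this simulation than the 0.05 that the adjustment aims at. At 4907514 to 5347196 counts a library, genes of few CPM have few counts and wide errors, and intervals cover the spread of these libraries only.

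Named genes are Ttr and Gapdh and the 8 called genes with the largest difference in each direction. Further ones are the 6 mer8 genes with the largest positive difference and up to 4 called members of each list by smallest p. The 8 genes per direction and the 6 mer8 genes were drawn from called genes with a mean log2 CPM of at least 2 and no overlap of libraries. Their lack of overlap is therefore no result. A gene that the rule names but that is absent from the text is not reported here. Others named were chosen after their values were seen. The compared libraries and the gene lists were chosen with earlier results of these data known. Seed matches were searched in annotated 3′-UTRs (20962 genes) and scores taken over genes with a mean of at least 1 CPM, without Ttr. The guide complement beyond the seed was read from its matching stretch in the Ttr reference transcript, which is not printed. Alternatives were RLE and library-size scaling, no filter on low counts, DESeq2 1.42.0 with and without betaPrior, either run by itself, a fit of the whole series, a block for replicate numbers, omission of single libraries and, for the scores, the median, other CPM minimums, a prior count of 0.5 and canonical transcripts.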

Additional observations from a re-analysis of the deposited data

Results flagged for a closer look

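Of 225 groups of 4 or 8 libraries checked for named genes and seed scores, 12 had a single library far from the others, and chance flags about 1 in 20 groups. In mock, Rnft1 was at 5.57 (log2 CPM) in replicate 8 against 5.83 to 6.03 in the others, Hmox1 at 6.99 in replicate 4 against 7.51 to 7.86, and the mer7m8 score at 0.218 in replicate 5 against 0.245 to 0.262. Mock replicate 3 was low for Tnc (1.06 against 1.98 to 2.53), Apoa5 (2.92 against 3.38 to 3.71) and Btg2 (6.38 against 6.65 to 6.85).
With D6, replicate 2 was low for Sdc4 (5.56 against 5.99 to 6.03) and F3 (5.71 against 6.07 to 6.13) and high for Itgb4 (5.42 against 5.18 in the other 3), and replicate 1 was high for Psmb10 (4.92 against 4.72 to 4.74). With D4, replicate 4 was low for Fdft1 (7.79 against 7.90) and high for Ugp2 (6.98 against 6.85 to 6.87).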

How the results depend on the processing

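The count of genes differing at 50 nM was 287 and 305 with each run alone and 270 to 516 when single libraries were left out. At 10 nM it was 456 without a filter, 342 with DESeq2 (with and without betaPrior), 798 with all libraries in one fit, 381 with a replicate block, 143 with run 2 and 60 to 225 without single libraries. Counts against mock were 3254 to 3870 (D4) and 3039 to 3608 (D6) without single libraries. The value of Ttr (0.04) turned negative with run 2 (−0.10), without a filter (−0.027), with DESeq2 (−0.027, and −0.0033 with betaPrior) and with all libraries in one fit (−0.031), and was −0.16 to 0.27 without single libraries. As a median over genes, the mer8 score difference was 0.11 and that of mer7A1 −0.025. With a minimum of 0.1 CPM it was 0.034 for mer8 and 0.026 for mer7m8, and without single libraries the differences were 0.05 to 0.08 (mer8), 0.04 to 0.05 (mer7m8) and −0.0080 to 0.0073 (mer7A1). The cause of these shifts was not tested. Of the 70 named genes, 34 kept their call in every alternative that gave a value, 43 in every omission of a library and 55 with the replicate block, and none changed sign. The block gave 334 genes at 50 nM. Same-numbered D4 and D6 libraries did not all deviate together (correlations of −0.17 to 0.08 at 50 nM and −0.03 to 0.19 at 10 nM, where replicate 4 correlated best with its own number), so the numbers were not taken as pairs. Depth limits low genes such as silenced Ttr.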

Other observations

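Beside Itgb4, 7 genes with known roles in epithelial cells were lower with D6 than with D4 and had positive log2 fold changes against mock with both. They were picked for this pattern after their values had been seen, on no fixed list, so they are single values and not a group result. The matriptase gene St14 differed by −0.68 (edgeR adjusted p = 0.000389) and stood 2.63 above mock (log2) with D4 and 1.95 with D6. Its inhibitor Spint1 differed by −1.12 (2.35 and 1.23 against mock), the membrane protease Prss8 by −0.47 (1.34 and 0.87) and the transmembrane glycoprotein Cdcp1 by −0.70 (1.59 and 0.90). Cdh1, the E-cadherin of adherens junctions, differed by −0.51 (1.27 and 0.76), the laminin chain Lamb3 by −0.38 (0.73 and 0.34) and the basement membrane anchor protein Lad1 by −0.77 (1.03 and 0.26). At 10 nM the differences were −0.55 for St14, −1.16 for Spint1, −0.80 for Lad1, −0.28 for Cdh1, −0.29 for Cdcp1, −0.16 for Lamb3 and −0.15 for Prss8. Other epithelial genes went another way or did not pass at 50 nM. Krt7 was higher with D6 (0.92), and Krt19 (0.06), Tspan8 (0.23), Epcam (−0.53, edgeR adjusted p = 0.0604), Krt18 (−0.13) and Krt8 (−0.09) did not pass.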
